A study of Mus musculus with 30 samples.

Results

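Photoreceptor ribbon synapse genes were examined across 30 retinal RNA sequencing libraries. They were taken by gene name and number 10 of the 42283 gene names in the count tables. The genes were chosen with earlier results of these data known, so their counts beside those of all genes are a description. Cacna1f, Cacna2d4 and Cacnb2 encode the pore-forming, alpha2delta and beta subunits of the presynaptic calcium channel, and Cabp4 encodes a calcium-binding protein that modulates it. Ctbp2 encodes RIBEYE, the main protein of the ribbon, and Bsn, Pclo and Unc13b encode the active-zone proteins Bassoon, Piccolo and Munc13-2. Slc17a7 encodes the vesicular glutamate transporter VGLUT1, and Lrit1 encodes a leucine-rich transmembrane protein of the photoreceptor terminal. All 10 passed the filter on low counts in both experiments.

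On GRCm38.p3, the build of the deposited tables, Cacna1f (ENSMUSG00000031142) lies on the plus strand of chrX:7607083-7635196, Cacna2d4 (ENSMUSG00000041460) on the plus strand of chr6:119236526-119352407 and Cacnb2 (ENSMUSG00000057914) on the plus strand of chr2:14603088-14987908. Cabp4 (ENSMUSG00000024842) lies on the minus strand of chr19:4135425-4139609 and has a second entry on a patch of the assembly; the 2 entries held equal shares of its counts and were summed. Ctbp2 (ENSMUSG00000030970) lies on the minus strand of chr7:132987563-133124354 and Bsn (ENSMUSG00000032589) on the minus strand of chr9:108096022-108190384. Pclo (ENSMUSG00000061601) lies on the plus strand of chr5:14514918-14860184, and a noncoding entry of the same name added 5.35% of its counts. Unc13b (ENSMUSG00000028456) lies on the plus strand of chr4:43058953-43264871, Slc17a7 (ENSMUSG00000070570) on the plus strand of chr7:45163921-45176138 and Lrit1 (ENSMUSG00000041044) on the plus strand of chr14:37054830-37064946.

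Rods and cones release glutamate continuously in darkness, and light slows that release. The ribbon is a plate-like structure that holds vesicles next to voltage-gated calcium channels at the active zone, where graded changes in membrane potential set the rate of vesicle fusion. In humans, loss of Cacna1f, Cacna2d4 or Cabp4 function disturbs transmission between photoreceptors and bipolar cells. Bipolar cells form ribbons too, so several of these genes are also expressed outside photoreceptors.

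The retinas came from Abca4-/-Rdh8-/- mice on a C57BL/6J background, aged 4 to 6 weeks and of both sexes, which clear all-trans-retinal slowly because they lack a disc-membrane flippase and a retinol dehydrogenase. Bright light damages this retina. The study's design text gives 10000 lux for 30 min and collection 24 h after exposure for the exposed mice as a whole, not per group. Drugs or DMSO, the vehicle given to control mice, were injected intraperitoneally 30 min before exposure, and the doses used were not stated in the labels. A combined experiment and a mono experiment were run and analysed separately, with 3 libraries in each group. The combined experiment had 4 groups: light after BMT (bromocriptine, metoprolol and tamsulosin), light after MDB (metoprolol, doxazosin and bromocriptine), light after DMSO, and no light. The mono experiment had 6 groups: light after bromocriptine (BRM), metoprolol (MTP), tamsulosin (TAM) or doxazosin (DOX) alone, light after DMSO, and no light. Bromocriptine activates dopamine receptors, metoprolol blocks beta-adrenergic receptors, and tamsulosin and doxazosin block alpha-adrenergic receptors. All groups share the double knockout, so there was neither a wild-type retina nor a drug given without light, and the labels do not say whether the 3 libraries of a group came from separate mice; p-values measure the spread between libraries only.

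Depth was 18.5 M to 25.8 M assigned counts per library in the combined experiment and 12.0 M to 22.2 M in the mono experiment. The 16 rod markers were high in every group of these retinas, and no retinal marker gene was at 0 in a whole group. Their summed level, in CPM, the count relative to the TMM-scaled library size, was 48187 to 59197 after light and 86677 to 103997 without light in the combined experiment, and 31785 to 43706 after light and 97303 to 105986 without light in the mono experiment. In bulk tissue, fewer cells of a type and less RNA per cell cannot be told apart. Lens-fibre transcripts, which are foreign to the neural retina, were high in 16 of the 30 libraries, including all libraries of the MDB, BRM and mono light groups and 1 library of each other group. CPM values below are on the TMM scale, which assumes that most genes do not change.

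Promoter sequence is shown for the transporter, the ribbon protein and Lrit1, because these stand for the largest decrease after light in the mono experiment, the only one of the 10 genes called higher after light on the TMM scale, in the combined experiment, and the only window that held motifs of both photoreceptor factors searched. RefSeq (GRCm38.p6) gave windows of 250 bases before to 50 bases after a start for 8 of the 10 genes. The motifs searched on both strands were TAATCC, the core bound by Crx and Otx, found in 7.06% of 32851 such windows of the genome, and TGCTGA, a short core of the Nrl response element, found in 19.5%. Capitals mark these motifs. The Ctbp2 window lies at the internal start of the gene on the minus strand of chr7:133015198-133015497 and held the Crx/Otx core as GGATTA, its reverse complement, 121 bases before the start. The Lrit1 window on the plus strand of chr14:37054580-37054879 held TAATCC 50 bases before the start and TGCTGA 80 and 8 bases before it. The Slc17a7 window on the plus strand of chr7:45163671-45163970 held neither.
Ctbp2: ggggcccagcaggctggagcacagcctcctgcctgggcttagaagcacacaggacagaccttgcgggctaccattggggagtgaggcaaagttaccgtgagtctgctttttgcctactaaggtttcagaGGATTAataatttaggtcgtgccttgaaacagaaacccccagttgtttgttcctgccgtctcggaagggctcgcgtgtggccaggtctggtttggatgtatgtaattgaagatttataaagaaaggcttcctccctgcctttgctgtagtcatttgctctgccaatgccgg
Lrit1: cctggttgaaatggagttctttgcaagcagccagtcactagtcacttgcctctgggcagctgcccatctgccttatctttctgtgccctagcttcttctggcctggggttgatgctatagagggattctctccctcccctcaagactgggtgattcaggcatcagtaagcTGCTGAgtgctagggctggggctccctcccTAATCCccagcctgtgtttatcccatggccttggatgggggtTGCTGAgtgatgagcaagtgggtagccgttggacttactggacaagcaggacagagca
Slc17a7: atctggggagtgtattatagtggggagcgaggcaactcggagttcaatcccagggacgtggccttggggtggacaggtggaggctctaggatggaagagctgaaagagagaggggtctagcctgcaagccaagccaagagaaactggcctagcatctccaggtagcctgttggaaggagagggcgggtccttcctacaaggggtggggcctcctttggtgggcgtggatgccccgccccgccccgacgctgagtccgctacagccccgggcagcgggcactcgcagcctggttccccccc
A match in these letters is a description of the window, not a binding site. The other windows of Cacna1f, Cacnb2, Bsn, Pclo, Unc13b and Ctbp2 held neither motif.

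Slc17a7 was by far the most abundant of the 10 transcripts per length, and the 2 giant active-zone scaffolds were the least abundant. In FPKM, which relates fragments to transcript length and library size and was summed over transcripts, Slc17a7 reached 635 ± 45.1 in unexposed retinas of the combined experiment and 676 ± 11.1 in those of the mono experiment (SD, n = 3). Cabp4 at 143 ± 13.2 and Cacnb2 at 141 ± 6.10 FPKM followed in the combined experiment and differed by less than their spread. Unc13b at 115 ± 9.49, Cacna2d4 at 97.9 ± 11.4 and Lrit1 at 96.3 ± 15.6 FPKM came next, the last pair again within their spread. Ctbp2 at 72.3 ± 3.58 and Cacna1f at 52.7 ± 3.46 FPKM were lower. Pclo at 19.5 ± 1.06 and Bsn at 8.07 ± 0.831 FPKM closed the order. The mono experiment gave the same order without light, apart from Cacnb2 at 153 ± 20.1 FPKM standing above Cabp4 at 148 ± 5.17 FPKM, again within the spread. After light, Slc17a7 was still first, at 481 ± 33.8 FPKM in the combined experiment and 329 ± 42.4 FPKM in the mono experiment. Cabp4 stood at rank 7 in the mono experiment, at 77.3 ± 12.4 FPKM after light. This was within the spread of Ctbp2 at 78.8 ± 7.06 and Lrit1 at 79.0 ± 2.01 FPKM. Ctbp2 stood at rank 6 after light in both experiments. Its 101 ± 2.79 FPKM in the combined experiment was within the spread of Cacna2d4 at 102 ± 7.04 FPKM.

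**Figure D1:**
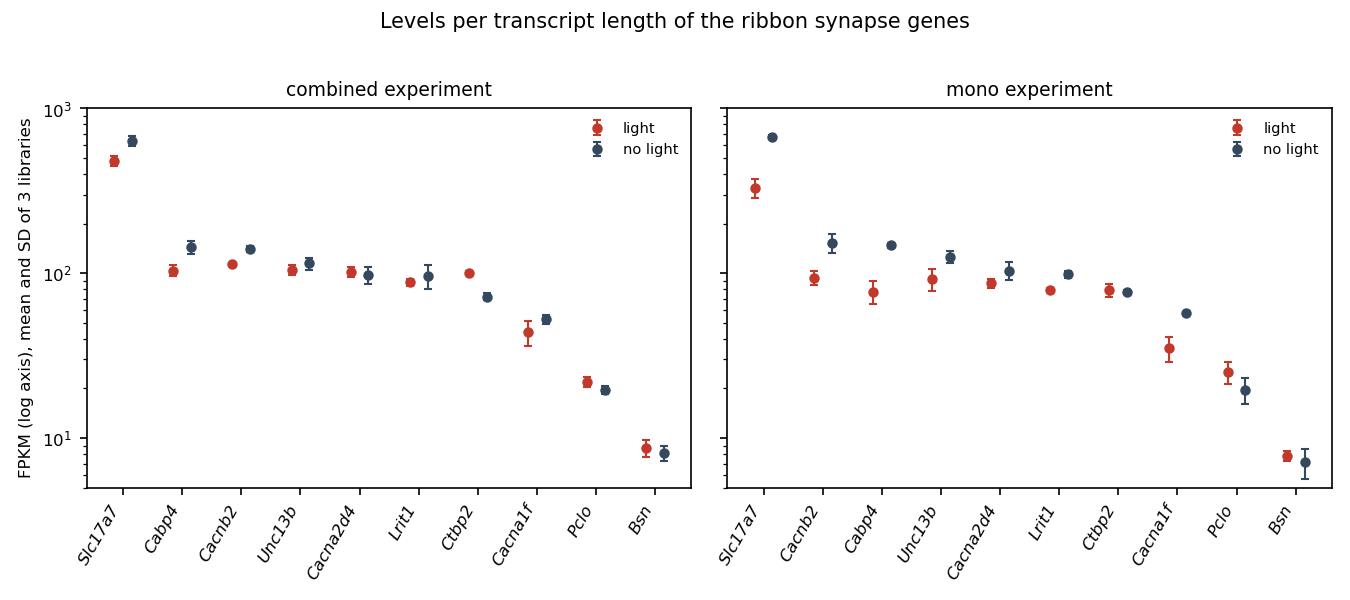
Level per length of the 10 genes after light and without light in each experiment (FPKM summed over transcripts, log axis), with points for the mean and bars for the SD of 3 libraries. Slc17a7 lies above all others and Pclo and Bsn below all others in each of the 4 groups.

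In the combined experiment light lowered Cacna1f, Cacnb2, Cabp4 and the vesicular transporter and raised Ctbp2 on the TMM scale. Scaled instead to the summed rod markers, which moves all genes of a library alike, all 10 genes were called higher, against 81.5% of all genes higher, as described below. Of the 10 genes, 4 were lower and 1 was higher after light than without it at an adjusted p under 0.05 (edgeR's quasi-likelihood test), against 13.3% of all 15941 genes called, 5.48% lower and 7.77% higher. The light and no light libraries did not overlap for 6 genes, against 30.3% of all genes. The median log2 difference of the 10 genes was -0.30, against 0.01 for all genes.

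Cabp4 had 132, 114 and 132 CPM after light, against 179.9, 191 and 213 CPM without light. Its log2 difference was -0.63 ± 0.11 (SE; edgeR's quasi-likelihood test, adjusted p = 0.00309), the largest decrease of the 10. Slc17a7 had 1212, 1085 and 1296 CPM after light, against 1693, 1710.0 and 1897 CPM without light. No light-exposed library reached the lowest unexposed one for either gene. The log2 difference of Slc17a7 was -0.56 ± 0.11 (edgeR, adjusted p = 0.00666).

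Among the channel subunits, Cacnb2 had 209, 196 and 214 CPM after light, against 290.4, 272 and 277 CPM without light, and Cacna1f had 184, 160.0 and 213 CPM, against 247, 237 and 254 CPM. Both sets were separate, with log2 differences of -0.44 ± 0.09 (edgeR, adjusted p = 0.00647) for Cacnb2 and -0.41 ± 0.12 (adjusted p = 0.0393) for Cacna1f. Cacna2d4, with 400.4, 382 and 444 CPM after light and 479, 384 and 502 CPM without light, overlapped and did not pass (log2 difference -0.15 ± 0.12, edgeR, adjusted p = 0.457). Differences between the subunits were not tested.

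Ctbp2 had 265, 255 and 275 CPM after light, against 192, 219 and 207 CPM without light. Every light-exposed library lay above every unexposed one, and the log2 difference was 0.36 ± 0.09 (edgeR, adjusted p = 0.024). The other active-zone genes did not pass: Unc13b had 251, 246 and 291 CPM after light, against 354, 295 and 332 CPM without light, which did not overlap (log2 difference -0.32 ± 0.11, edgeR, adjusted p = 0.0869). Bsn (103 ± 14.6 CPM after light, 92.0 ± 15.3 CPM without light) and Pclo (195 ± 4.65 CPM after light, 204 ± 10.9 CPM without light) overlapped between the groups (SD, n = 3). Lrit1, with 335, 301 and 329.6 CPM after light and 433, 323 and 427 CPM without light, overlapped through 1 unexposed library (log2 difference -0.29 ± 0.13, edgeR, adjusted p = 0.169).

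Cacnb2, Cabp4 and Slc17a7 were called whichever of the 6 libraries was left out. The count of 5 fell to 3 without light replicate 1, without no light replicate 1 or without no light replicate 3; Ctbp2 also lost its call without light replicate 3 (adjusted p = 0.0738, edgeR), and Cacna1f without light replicate 2 (adjusted p = 0.142). Counted over protein-coding transcripts only, Ctbp2 gave 0.30 (edgeR, adjusted p = 0.0547) and Cacna1f -0.26 (adjusted p = 0.172). Without the libraries that carried lens-fibre transcripts, 7 genes were called and Ctbp2 gave 0.37 (edgeR, adjusted p = 0.0523). Cacna2d4, Unc13b and Lrit1 were among the 7. Unc13b and Lrit1 were also called without no light replicate 2, which carried those transcripts, and with a lens-fibre covariate. DESeq2 and protein-coding transcripts only called Unc13b too. The authors' TMM-normalized FPKM list part of the transcripts, and a single transcript of each gene was tested there, not the gene sum. For Cacna1f it was Cacna1f-001 and for Ctbp2 it was Ctbp2-004. For Cacnb2 it was a transcript with under 10% of that gene's counts on average. On these values Cacna1f (adjusted p = 0.274), Cacnb2 (0.0829) and Ctbp2 (0.0617) did not pass (limma, pseudocount 1). Fitted with only the light and no light libraries, Cacna1f lost its call too.

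In the mono experiment light lowered 7 of the 10 genes on the TMM scale, all 4 of the channel complex included, and raised none. Relative to the rod markers 8 of the 10 were called higher, against 89% of all genes higher. Of all 16184 genes 24% were called, 12.6% lower and 11.3% higher (edgeR's quasi-likelihood test, adjusted p under 0.05). For 9 genes the light libraries lay below all unexposed ones, against 20.1% of all genes in that direction and 40.4% in either. The median log2 difference was -0.60, against 0.02 for all genes.

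Slc17a7 had 829, 687 and 908 CPM after light, against 1946, 1916 and 1936 CPM without light. Its log2 difference of -1.26 ± 0.16 (edgeR, adjusted p = 0.000126) was the largest of the 10. Cabp4 had 97.7, 74.8 and 105 CPM after light, against 211, 193 and 215 CPM without light, a log2 difference of -1.16 ± 0.20 (edgeR, adjusted p = 0.000726). For both genes every exposed library lay well below the unexposed ones.

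The pore subunit Cacna1f had 144, 129 and 133 CPM after light, against 283, 276 and 267 CPM without light (log2 difference -1.03 ± 0.13, edgeR, adjusted p = 0.000115). Cacnb2 averaged 171 ± 15.6 CPM after light and 309 ± 23.8 CPM without light, and Cacna2d4 averaged 333 ± 22.2 CPM after light and 487 ± 52.7 CPM without light (SD, n = 3). Their log2 differences were -0.85 ± 0.12 (edgeR, adjusted p = 0.000254) and -0.55 ± 0.12 (adjusted p = 0.00366). All 4 genes of the channel complex fell without overlap.

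Unc13b had 249, 246 and 205 CPM after light, against 372, 332 and 393 CPM without light (log2 difference -0.65 ± 0.11, edgeR, adjusted p = 0.0006), and Lrit1 had 295, 274 and 287 CPM, against 412, 387 and 443 CPM (-0.54 ± 0.10, adjusted p = 0.00159). The ribbon and scaffold genes did not pass. Ctbp2 had 186, 175 and 213 CPM after light, against 232, 224 and 215 CPM without light (log2 difference -0.23 ± 0.12, edgeR, adjusted p = 0.196). Bsn had 69.8, 71.0 and 83.3 CPM after light, against 89.9, 108 and 88.9 CPM without light (-0.36 ± 0.13, adjusted p = 0.0508). Both were separate between the groups although neither passed. Bsn was called with RLE factors, DESeq2, limma voom, a replicate block, only the groups compared and TMM-normalized FPKM (limma). It was also called without light replicate 3. Pclo had 206, 249 and 194 CPM after light, against 181, 239 and 231 CPM without light, and the 2 groups covered the same range. All 7 calls were kept whichever of the 6 libraries was left out. On the authors' TMM-normalized FPKM, tested for a single transcript of each gene, Cacna1f-001 did not pass (limma, pseudocount 1, adjusted p = 0.153).

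**Figure D2:**
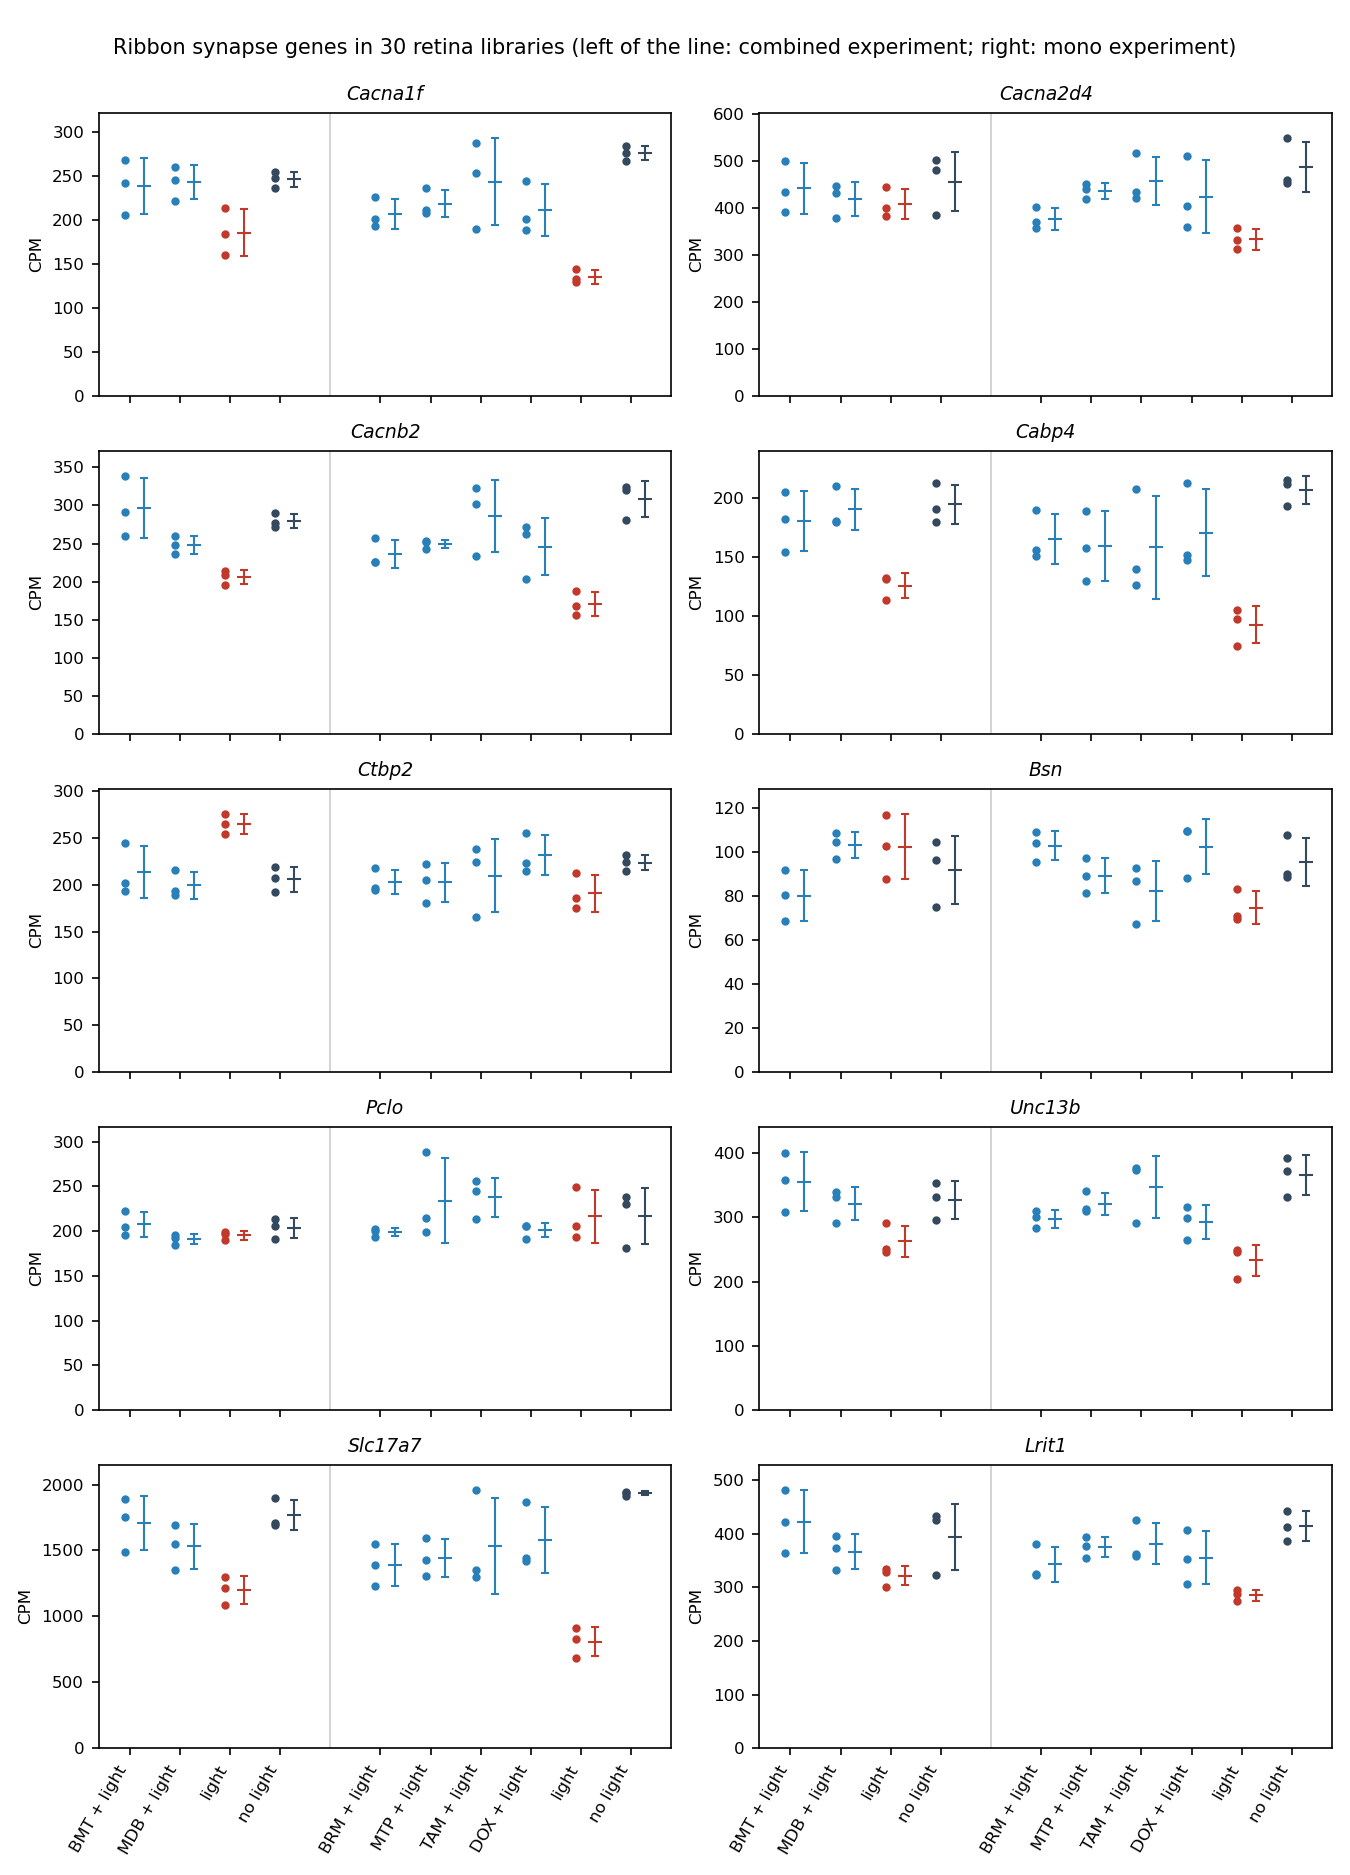
CPM on the TMM scale of each gene in every library, by group, with the mean and SD of 3 libraries beside the points. Slc17a7 lies at 687 to 908 CPM in the mono light group and at 1916 to 1946 CPM without light, whereas Pclo covers the same range in both. On the rod-marker scale 10 genes were called higher after light in the combined and 8 in the mono experiment, against 81.5% and 89% of all genes.

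On the TMM scale the light difference lay lower in the mono than in the combined experiment for 9 of the 10 genes. The difference between experiments passed for none (edgeR's quasi-likelihood test over all 30 libraries, 0 of 10 genes, 0% of all 16576 genes). At an unadjusted p under 0.05 the counts were 8 of the 10 genes and 2509 of all genes. The largest values, as the mono light difference minus the combined one, were -0.70 ± 0.20 for Slc17a7 (adjusted p = 0.132), -0.62 ± 0.18 for Cacna1f (adjusted p = 0.126) and -0.59 ± 0.16 for Ctbp2 (adjusted p = 0.121). DESeq2 called these 3 genes, Cacna1f, Ctbp2 and Slc17a7, and limma voom none. The opposite signs of Ctbp2 on the TMM scale were thus separated by DESeq2 and not by the edgeR test. On the rod-marker scale Ctbp2 was above 0 in both, at 1.22 in the combined and 1.15 in the mono experiment. There the differences between experiments were -0.18 for Slc17a7, -0.085 for Cacna1f and -0.067 for Ctbp2. Their median was 0.058 for the 10 genes and 0.52 for all genes, and 0 of the 10 genes were called (edgeR).

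Pretreatment with either mixture left Cabp4 higher and Ctbp2 lower than light after DMSO on the TMM scale. On the rod-marker scale all 10 genes were called lower with BMT, against 80.9% of all genes lower, and 9 with MDB, against 68.4%; Cabp4 with MDB gave -0.071 there (edgeR, adjusted p = 0.522). With BMT, 4 genes were higher and 1 was lower than after light with DMSO, against 17.8% of all genes called, 7.97% higher and 9.79% lower (edgeR's quasi-likelihood test). With MDB, 1 gene was higher and 1 was lower, against 9.64% of all genes called, 3.7% higher and 5.93% lower. The libraries did not overlap for 6 genes with each mixture, against 39.1% of all genes for BMT and 33.2% for MDB. The median log2 differences were 0.38 for BMT and 0.23 for MDB. These comparisons share the 3 light libraries with the light comparison, so an opposite sign to light is built into them in part.

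With BMT, Cabp4 had 182, 154 and 205 CPM, and with MDB 179.8, 181 and 210.3 CPM, against 132, 114 and 132 CPM after light with DMSO. All 6 treated libraries lay above all 3 untreated ones, with log2 differences of 0.52 ± 0.11 for BMT (edgeR, adjusted p = 0.00846) and 0.60 ± 0.11 for MDB (adjusted p = 0.0053). Ctbp2 had 245, 194 and 202 CPM with BMT and 189, 194 and 216 CPM with MDB, against 265, 255 and 275 CPM. All 6 treated libraries lay below the untreated ones, with log2 differences of -0.31 ± 0.09 for BMT (edgeR, adjusted p = 0.0412) and -0.41 ± 0.09 for MDB (adjusted p = 0.0172).

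Slc17a7 had 1755, 1487 and 1887 CPM with BMT and 1354, 1546 and 1695 CPM with MDB, against 1212, 1085 and 1296 CPM after light with DMSO. Neither mixture overlapped the light group, yet BMT passed (log2 difference 0.51 ± 0.11, edgeR, adjusted p = 0.0102) and MDB did not (0.35 ± 0.11, adjusted p = 0.0769). Cacnb2 had 292, 259.9 and 338 CPM with BMT and 236, 248 and 259 CPM with MDB, against 209, 196 and 214 CPM. Its log2 differences were 0.52 ± 0.09 for BMT (edgeR, adjusted p = 0.00224) and 0.26 ± 0.09 for MDB (adjusted p = 0.0911). Unc13b passed with BMT (0.44 ± 0.11, edgeR, adjusted p = 0.0193) and not with MDB (0.29 ± 0.11, adjusted p = 0.135). Cacna1f came near the threshold with BMT (0.36 ± 0.12, edgeR, adjusted p = 0.0514) and with MDB (0.39 ± 0.12, adjusted p = 0.06). DESeq2, limma voom, a replicate block and a lens-fibre covariate called it with both mixtures. RLE factors and only libraries with few lens-fibre transcripts called it with BMT. Lrit1 passed with neither mixture. With BMT it was called with RLE factors, DESeq2, a replicate block, only the groups compared, the lens-fibre covariate and only libraries with few lens-fibre transcripts. With MDB, DESeq2 called Slc17a7 and Cacnb2, a replicate block called Slc17a7, and only the groups compared called Cacnb2. The lens-fibre covariate called Slc17a7, Cacnb2, Unc13b and Lrit1 with MDB. Cacna2d4 and Pclo lay within 0.11 of 0 with both mixtures, and Bsn gave -0.35 ± 0.14 with BMT (adjusted p = 0.107).

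With BMT, Cacnb2, Cabp4 and Slc17a7 were called whichever library was left out, and the count fell to 3 without light replicate 1, without light replicate 2 or without BMT replicate 3. Ctbp2 lost its BMT call without any single light replicate and without BMT replicate 2 or 3, with adjusted p-values up to 0.146 (edgeR). That call was also lost with RLE factors (adjusted p = 0.051), no filter on low counts (0.0529), a replicate block (0.0615), only the groups compared (0.0913), protein-coding transcripts only (0.0684) and only libraries with few lens-fibre transcripts (0.209). Unc13b lost its BMT call without light replicate 1 or 2 or BMT replicate 1 or 3. With MDB, Cabp4 was called whichever library was left out. The count was 1 without light replicate 1, without MDB replicate 1 or without MDB replicate 2. Ctbp2 also lost its MDB call without light replicate 3. On the authors' TMM-normalized FPKM its single tested transcript, Ctbp2-004, did not pass with MDB (limma, pseudocount 1, adjusted p = 0.0931). With the lens-fibre score as a covariate 7 genes were called with MDB (edgeR), all 3 of whose libraries carried those transcripts. The rod markers moved the same way, at 83421 to 111122 CPM with BMT and 76567 to 88594 CPM with MDB, against 48187 to 59197 CPM after light with DMSO; their part in these differences was not tested.

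Each single drug left 5 to 7 of the genes higher than light with DMSO and none lower on the TMM scale. On the rod-marker scale 8 were called lower with BRM, against 75% of all genes lower, 10 with MTP, against 83.7%, 8 with TAM, against 83.9%, and 8 with DOX, against 81.2%, so these counts lay near the background. With BRM 6 genes were higher, against 14.4% of all genes called in either direction and 7.06% higher (edgeR's quasi-likelihood test). With MTP 7 were higher, against 10.3% called and 5.37% higher. With TAM 7 were higher, against 10.6% called and 6.57% higher, and with DOX 5, against 11.8% called and 6.77% higher. The drug libraries did not overlap the light libraries for 8 genes with BRM, 7 with MTP, 7 with TAM and 9 with DOX, against 39.4%, 29.8%, 27.7% and 31.4% of all genes in the same order. The 4 comparisons share the same 3 light libraries.

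Slc17a7 had 1390.4, 1552 and 1227 CPM with BRM, 1592, 1424 and 1303 CPM with MTP, 1351, 1299 and 1956 CPM with TAM and 1868, 1421 and 1444 CPM with DOX, against 829, 687 and 908 CPM after light with DMSO. All 12 treated libraries lay above the 3 untreated ones. The log2 differences were 0.78 ± 0.16 for BRM (edgeR, adjusted p = 0.0055), 0.83 ± 0.16 for MTP (adjusted p = 0.00427), 0.93 ± 0.16 for TAM (adjusted p = 0.00211) and 0.97 ± 0.16 for DOX (adjusted p = 0.00334).

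Cacna1f had 193, 226 and 201 CPM with BRM, 208, 236 and 211 CPM with MTP, 253, 189 and 287 CPM with TAM and 245, 189 and 201 CPM with DOX, against 144, 129 and 133 CPM. Again no treated library reached down to the untreated ones. The log2 differences ran from 0.61 ± 0.13 with BRM (edgeR, adjusted p = 0.00611) to 0.85 ± 0.13 with TAM (adjusted p = 0.00132). Cabp4 passed with all 4 drugs, at 0.84 ± 0.20 with BRM (edgeR, adjusted p = 0.0114), 0.78 ± 0.20 with MTP (adjusted p = 0.0198), 0.77 ± 0.20 with TAM (adjusted p = 0.0199) and 0.88 ± 0.20 with DOX (adjusted p = 0.0115). Cacnb2 passed with all 4 as well, between 0.47 ± 0.12 with BRM (edgeR, adjusted p = 0.0203) and 0.74 ± 0.12 with TAM (adjusted p = 0.0018).

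The remaining genes passed with some of the drugs. Unc13b passed with BRM, MTP and TAM, the last at 0.57 ± 0.11 (edgeR, adjusted p = 0.0037), and gave 0.33 ± 0.11 with DOX (adjusted p = 0.0575). Cacna2d4 and Lrit1 passed with MTP and TAM. Bsn passed with BRM (0.46 ± 0.13, edgeR, adjusted p = 0.0235) and DOX (0.46 ± 0.13, adjusted p = 0.03), with 95.8, 109 and 104 CPM with BRM and 109.7, 109.6 and 88.1 CPM with DOX, against 69.8, 71.0 and 83.3 CPM. Ctbp2 and Pclo passed with none of the 4 drugs, with log2 differences of 0.08 to 0.28 for Ctbp2 and -0.12 to 0.14 for Pclo. On the TMM-normalized FPKM, the single transcript Ctbp2-004 was called with DOX (limma). Whether the drugs differ in which genes passed was tested only for TAM and DOX, below.

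Cacna1f and Slc17a7 were called with all 4 drugs whichever library was left out. Without mono light replicate 2 the counts fell to 2 with BRM, 3 with MTP, 4 with TAM and 2 with DOX. They also fell to 2 without BRM replicate 2, to 4 without MTP replicate 1, to 4 without TAM replicate 3 and to 2 without DOX replicate 1. Cabp4 was among the calls lost with each drug in those fits, and Cacnb2 with BRM, MTP and DOX. Bsn was also lost without mono light replicate 1 with BRM and DOX, without BRM replicate 3 and without DOX replicate 2. Cacna2d4 with MTP was lost whichever library was left out, and with TAM without mono light replicate 2 or 3 or TAM replicate 3. Lrit1 was lost without mono light replicate 2 with both drugs, without MTP replicate 1 or 2 and without TAM replicate 3. Unc13b was lost with BRM without mono light replicate 2 or 3 or any BRM replicate, and with MTP without MTP replicate 3. Fitted with only the TAM and light libraries, 2 of the 7 TAM calls remained, those of Cacna1f and Cacnb2. On the authors' TMM-normalized FPKM a single transcript of each gene was tested, with limma at a pseudocount of 1. The Cacnb2 transcript passed with none of the 4 drugs (limma, adjusted p from 0.0663 with TAM to 0.359 with BRM). It held under 10% of that gene's counts on average, so this does not test the gene sum. Cacna1f-001 did not pass either (0.297 with TAM to 0.979 with BRM), nor did the Unc13b transcript with BRM (0.0723). The summed rod markers were higher as well, at 68219 to 85312 CPM with BRM, 72926 to 89727 CPM with MTP, 67598 to 106314 CPM with TAM and 70005 to 95920 CPM with DOX, against 31785 to 43706 CPM after light with DMSO. Their part in these differences was not tested. All BRM and mono light libraries also carried the lens-fibre transcripts. With the lens-fibre score as a covariate (edgeR), Cacna2d4 (adjusted p = 0.124), Cabp4 (0.0509) and Lrit1 (0.0631) lost their calls with MTP, and no call was lost with BRM, TAM or DOX.

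**Figure D3:**
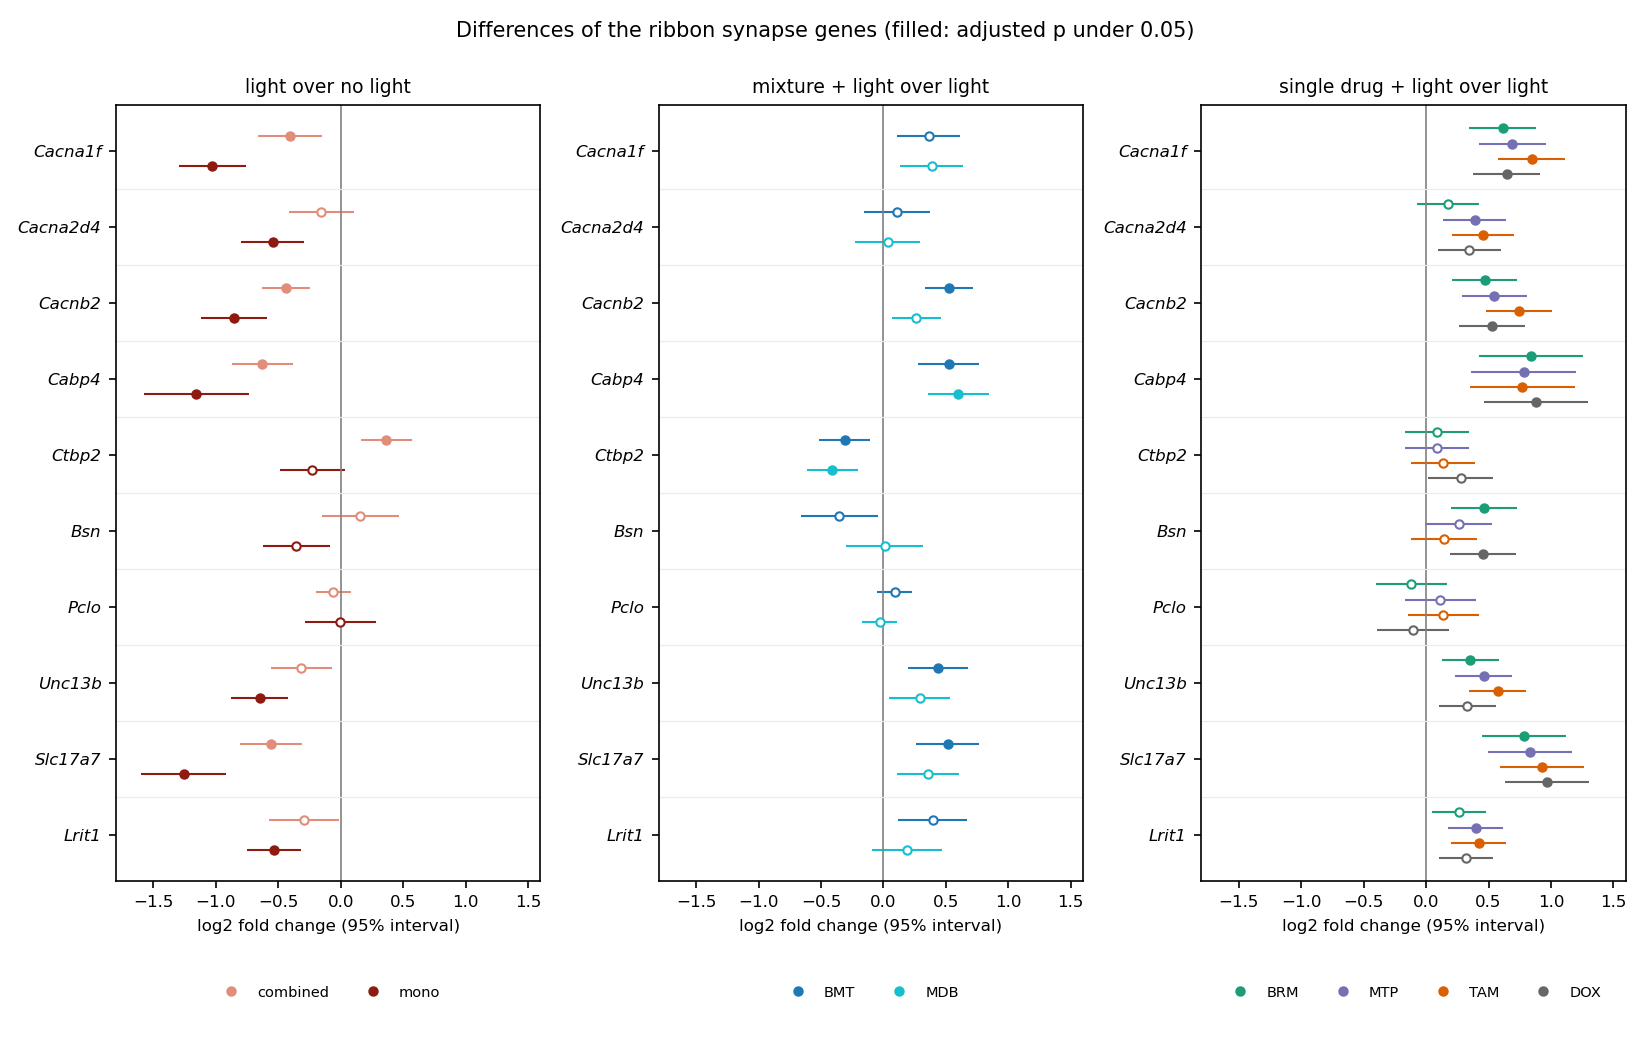
Log2 differences of the 10 genes on the TMM scale with 95% intervals, for light against no light and for each drug or mixture against light with DMSO. Filled points passed at an adjusted p under 0.05; on the rod-marker scale, where all genes of a library move alike, the light differences were above 0 and the drug differences below 0.

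Compared with retinas that saw no bright light, none of the 10 genes was called in any drug or mixture group (edgeR's quasi-likelihood test), but neither were other genes, with 0% of all genes called in 5 of these comparisons and 0.00618%, a single gene, for BRM. With BMT the log2 differences lay between -0.20 for Bsn and 0.12 for Unc13b, and all 10 genes overlapped the unexposed libraries, against 9.15% of all genes that did not. With MDB they lay between -0.21 for Slc17a7 and 0.17 for Bsn. At an unadjusted p under 0.05 the counts were 0 of the 10 genes for BMT, MDB and TAM, 6 for BRM, 3 for MTP and 4 for DOX, and 1008 to 2527 of all genes. DESeq2 called 1 of the 10 genes for BRM and none in the other 5 comparisons, and limma voom called none.

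By their means, the single-drug groups sat between light and no light for Slc17a7 and Cacna1f. With BRM 7 genes lay below all unexposed libraries, against 15.1% of all genes in that direction, and Slc17a7 had a log2 difference of -0.48 with a 95% interval of -0.81 to -0.14. With MTP 5 genes lay below them, against 10.2% of all genes, with DOX 4, against 10.4%, and with TAM none, against 6.52%. Cacna1f gave -0.41 (95% interval -0.68 to -0.15) with BRM, -0.34 (-0.60 to -0.07) with MTP, -0.38 (-0.65 to -0.11) with DOX and -0.18 (-0.45 to 0.09) with TAM. These intervals include decreases of this size, so the missing calls do not show that the drugs kept the genes at the unexposed level. Slc17a7 with BMT had a narrower and more central interval, -0.30 to 0.20. These values lay nearer to 0 on the rod-marker scale: Slc17a7 with BRM gave -0.040, and Cacna1f gave 0.024 with BRM, 0.0069 with MTP, -0.038 with DOX and 0.11 with TAM. The median of all genes was 0.46 with BRM, 0.33 with MTP, 0.33 with TAM and 0.36 with DOX on that scale, and none of the 10 genes was called there (edgeR).

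BMT and MDB share bromocriptine and metoprolol and differ in the alpha blocker, tamsulosin in BMT and doxazosin in MDB. Between them none of the 10 genes was called (edgeR's quasi-likelihood test, 0% of all genes called), with 2 of 10 genes and 2992 of all genes at an unadjusted p under 0.05 and none by DESeq2 or limma voom. Cacnb2 was the member furthest up with BMT, at 292, 259.9 and 338 CPM, against 236, 248 and 259 CPM with MDB (log2 difference 0.26, 95% interval 0.07 to 0.45, adjusted p = 0.193). Bsn was furthest down, at 91.7, 80.5 and 68.5 CPM with BMT, against 105, 97.0 and 109 CPM with MDB (-0.37, 95% interval -0.67 to -0.06, adjusted p = 0.212). These were the 2 genes whose libraries did not overlap, against 27% of all genes.

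Tamsulosin, a sulfonamide, and doxazosin, a quinazoline, were also compared as single drugs. Of the 10 genes 0 were called (edgeR's quasi-likelihood test, 0% of all genes called), with 2 of the 10 and 2506 of all genes at an unadjusted p under 0.05 and none by DESeq2 or limma voom. Bsn had 67.1, 86.9 and 93.0 CPM with TAM, against 109.7, 109.6 and 88.1 CPM with DOX (log2 difference -0.31, 95% interval -0.58 to -0.05, adjusted p = 0.264), and Unc13b gave 0.24 (95% interval 0.02 to 0.47, adjusted p = 0.298). The libraries overlapped for all genes except Pclo, against 16.7% of all genes without overlap. Without stated doses the pair cannot be read at matched doses. Only these 2 pairs of drug groups were compared, with p-values adjusted over all genes within each.

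Ctbp2 was also divided by transcription start. This split was made after seeing the transcript values, so its values are a description, and the difference between the 2 classes was not tested. Ctbp2-004, with 988 codons, carries the long first exon specific to RIBEYE, whereas Ctbp2-001 starts upstream and encodes the 445-codon nuclear corepressor CtBP2; the 2 share their other exons. The 2 transcripts within 500 bases of the internal start shown above, Ctbp2-004 and Ctbp2-003, had 213, 201 and 214 CPM after light, against 129, 163 and 155 CPM without light, a log2 difference of 0.49 ± 0.12 (SE). Ctbp2-003 is annotated as a target of nonsense-mediated decay, with 188 codons, so this class is not RIBEYE mRNA alone. The 18 other Ctbp2 transcripts had 51.8, 53.6 and 61.1 CPM after light, against 62.7, 55.4 and 51.7 CPM without light, with overlapping groups and a log2 difference of -0.03 ± 0.10. The other starts gave 0.82 on the rod-marker scale.

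With the mixtures, the internal start lay lower than after light with DMSO, at 176, 136 and 141 CPM with BMT and 135, 137 and 164 CPM with MDB. The log2 differences were -0.47 ± 0.12 for BMT and -0.53 ± 0.12 for MDB, and the other starts gave 0.17 ± 0.10 and -0.03 ± 0.10. In the mono experiment the internal start had 130.0, 110.1 and 149 CPM after light, against 175, 160.0 and 153 CPM without light (-0.32 ± 0.16). The other starts had 55.6, 64.6 and 63.7 CPM after light, against 56.9, 64.3 and 62.4 CPM without light, which overlapped. The internal start held 79.1 ± 1.32% of the Ctbp2 counts after light and 72.3 ± 4.34% without light in the combined experiment, and 67.7 ± 4.08% after light and 72.6 ± 2.47% without light in the mono experiment (SD, n = 3). The split of reads between transcripts that share exons is an estimate by eXpress.

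**Figure D4:**
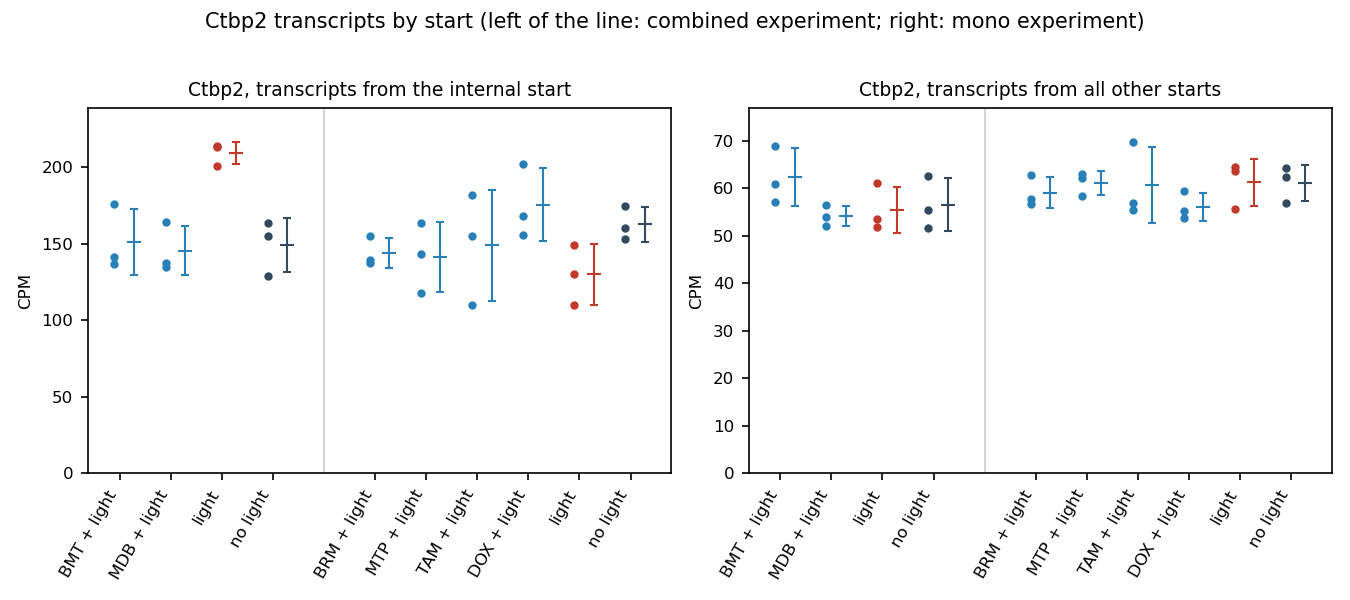
CPM of Ctbp2 transcripts from the internal start and from the other starts in every library, by group, with the mean and SD of 3 libraries beside the points. In the combined experiment the internal start lies at 201 to 214 CPM after light and at 129 to 163 CPM without light, whereas the other starts overlap; on the rod-marker scale both classes were higher after light.

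The other genes were mostly carried by 1 to 3 transcripts. Transcript by transcript, light in the combined experiment lowered Cacnb2-003, both Cabp4 copies and Slc17a7-201 (edgeR's quasi-likelihood test, 2.82% of 39616 transcripts called). Light in the mono experiment lowered Cacna1f-004, Cacna2d4-001, Cacnb2-004, Cacnb2-003, both Cabp4 copies, Unc13b-001, Unc13b-003, Slc17a7-201 and Lrit1-001 (5.12% of 42122 transcripts called). Cacna1f-004 and Cacnb2-003 are annotated as retaining an intron. The authors' deposited table of significant transcripts lists none of these genes for the combined experiment, among 521 transcripts. For the mono experiment, the authors' deposited table lists both Cabp4 copies (adjusted p of the F test 0.02394) and Slc17a7 (0.00413), with log2 differences of 1.13 and 1.235 for no light over light.

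Scaled to the rod markers, the 10 genes lay above 0 after light, with a median below that of all genes, as on the TMM scale. When counts were scaled so that the 16 rod markers kept their sum, the median log2 light difference of all genes moved by 0.86 in the combined and by 1.39 in the mono experiment. This shift is common to all genes of a library, so the change of sign of 8 of the 10 genes in the combined experiment follows from it; Ctbp2 and Bsn were above 0 on both scales. The median of the 10 genes was 0.56 in the combined experiment, against 0.87 for all genes, and 0.80 in the mono experiment, against 1.41. All 10 genes were called higher after light in the combined experiment, from 0.23 for Cabp4 to 1.22 for Ctbp2, against 81.5% of all genes higher (edgeR). In the mono experiment 8 were called, up to 1.41 for Pclo, against 89% of all genes, and Cabp4 (0.21, edgeR, adjusted p = 0.073) and Slc17a7 (0.11, adjusted p = 0.248) did not pass. Slc17a7 per 1000 rod-marker counts was 22.6 ± 0.762 after light and 18.4 ± 1.22 without light in the combined experiment, and 20.6 ± 1.12 after light and 19.1 ± 0.729 without light in the mono experiment (SD, n = 3). Cabp4 and Slc17a7 were the members whose ratio to rod markers moved least. Ctbp2 was 5.02 ± 0.329 after light and 2.16 ± 0.316 without light in the combined experiment, and 4.90 ± 0.577 after light and 2.21 ± 0.155 without light in the mono experiment. These means of the 2 experiments lay within their SD of each other, after light and without it.

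**Figure D5:**
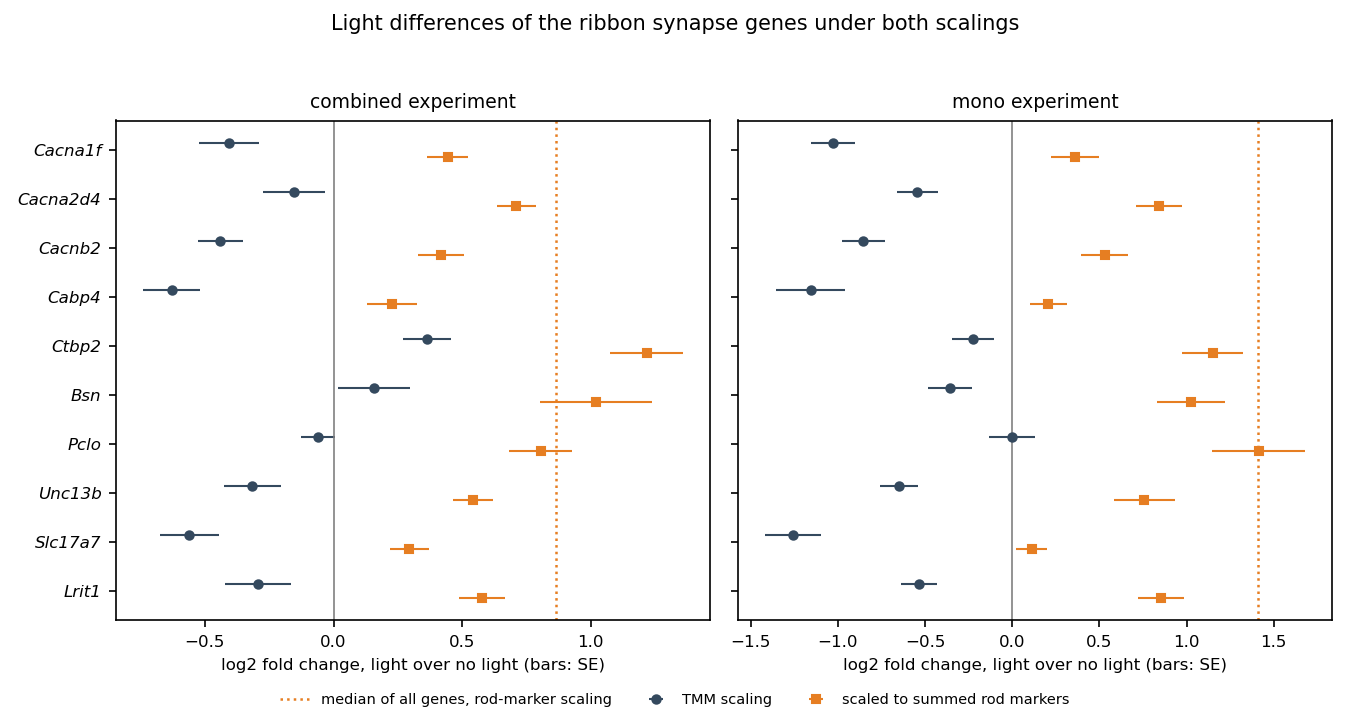
Log2 light difference of each gene on the TMM scale and on the rod-marker scale, in both experiments, with bars for the SE and a dotted line for the median of all genes on the rod-marker scale. On the TMM scale most genes lie below 0, and on the rod-marker scale all 10 lie above 0, with Cabp4 and Slc17a7 nearest to it and most below the median of all genes.

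The wider synapse was described with 5 lists of 82 genes, on the TMM scale unless stated. On the rod-marker scale 76 of the 81 genes tested were called higher after light in each experiment, against 81.5% and 89% of all genes higher, and 4 of the 5 lists had medians below that of all genes, such as 0.67 against 0.87 and 0.92 against 1.41 for the scaffolds. Among the named genes only Kcnv2 was below 0 in both experiments on that scale (-0.33 and -0.13). Of 18 release-machinery genes tested, light raised 1 and lowered 4 in the combined experiment and raised 1 and lowered 8 in the mono experiment (27.8% and 50% called, edgeR, against 13.3% and 24% of all genes), with median log2 differences of -0.13 and -0.21. Rims2, an active-zone organizer, had -0.58 in the combined and -0.88 in the mono experiment, and Stx3, the syntaxin of ribbon synapses, had -0.54 and -0.70. Of 12 vesicle and recycling genes, none rose, and 3 fell in the combined and 6 in the mono experiment (25% and 50%), with medians of -0.11 and -0.24. Among them were the vesicle proteins Sv2b (-0.40 and -0.72) and Syngr1 (-0.36 and -0.62) and the endophilin Sh3gl2 (-0.34 and -0.26).

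Of 17 channel and calcium-handling genes, light raised 1 and lowered 2 in the combined and raised 1 and lowered 5 in the mono experiment (17.6% and 35.3% called, against 13.3% and 24% of all genes), with medians of -0.01 and -0.04, near those of all genes at 0.01 and 0.02. Kcnv2, a potassium channel subunit of photoreceptors, had -1.19 and -1.50, and Slc1a7, a glutamate transporter of photoreceptor terminals, -0.37 and -1.14. Of 20 scaffold and trans-synaptic genes, 1 rose and 5 fell in the combined and 2 rose and 12 fell in the mono experiment (30% and 70%), with medians of -0.19 and -0.47. Mpdz, a PDZ scaffold (-0.88 and -0.97), Dmd, which encodes dystrophin (-0.71 and -0.81), and Unc119, a lipid-binding trafficking protein (-0.63 and -1.06), fell in both. Lin7a, a small PDZ scaffold, rose in both (0.46 and 0.72). Of 14 postsynaptic genes, 3 rose and 2 fell in the combined and 1 rose and 3 fell in the mono experiment (35.7% and 28.6%), with medians of 0.19 and 0.06. Gnb5 (-0.64 and -1.09) and Rgs9bp (-0.88 and -1.34) fell in both, and both also serve the RGS9 complex of photoreceptor outer segments. With the drugs and mixtures, 0 to 8 genes of each list were higher and 0 to 2 lower than after light with DMSO. Of all genes, 3.7% to 7.97% were higher and 4.01% to 9.79% lower. The share of a list called was lowest, 0%, for recycling with MDB, against 9.64% of all genes. It was highest, 45%, for the scaffolds with TAM, against 10.6% of all genes. Against no light, 0 genes of the lists were called. Scaled to the rod markers, 67 to 77 of the 81 genes were lower and 0 to 1 higher than after light with DMSO, against 68.4% to 83.9% of all genes lower.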

How the data were processed

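RNA of the neural retina, isolated with Trizol, was made into stranded mRNA libraries (dUTP method), with 50 M read pairs requested per library, per the labels' protocols. Trimmomatic, Bowtie2, eXpress, TopHat2, edgeR and limma and build GRCm38.p3 are named, without versions or roles, in the submitters' processing notes. The authors deposited eXpress effective counts per transcript (estimated counts, not normalized), eXpress FPKM, TMM-normalized FPKM for part of the transcripts, and tables of significant transcripts with log2 fold changes over light and adjusted p-values of an F test, per the series' design text and the file headers. The authors' counting setting for strand is not given in the sources used here.

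Estimated counts were summed per gene name (102906 transcripts, 42283 names), rounded to whole numbers and tested with edgeR 4.0.16 (quasi-likelihood, TMM, filterByExpr; R 4.3.3), in 1 fit per experiment and 1 over all 30 libraries for the difference between experiments. P-values were adjusted by Benjamini-Hochberg over all genes tested and called under 0.05. Intervals are 95% intervals of the log2 difference. Groups came from the sample labels, and no 2 libraries of a group agreed within sampling noise (lowest chi-square per degree of freedom 8.60). The scripts were tested on simulated data. Transcripts of a gene were named where they held at least 10% of its count. Genes beyond the 10 came from 5 lists: up to 3 of each list, called in both light comparisons and ranked by mean log2 difference, plus any called in both the other way. A gene that this rule also picks is not reported here, for a reason unrelated to its values. The members and lists were chosen with earlier results of these data known.

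Alternatives were RLE factors, scaling to 16 rod markers, no filter, DESeq2 1.42.0, limma 3.58.1 (voom, and log2 of TMM-normalized FPKM plus a pseudocount of 1 or 0.1), a replicate block, only the groups compared, protein-coding transcripts, a lens-fibre score (mean log2 CPM of 6 lens genes, prior count 1) as a covariate, and leaving out each library. Summing per gene identifier, keeping libraries with a lens-fibre score under 6 and splitting Ctbp2 by start were added after seeing the data. The TMM-normalized FPKM were tested for a single transcript of each gene. Coding lengths are those of GENCODE M21. A planned test of transcript use within a gene was dropped because it did not perform in the self-test.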

Additional observations from a re-analysis of the deposited data

How the results depend on the processing

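Depth and 3 libraries a group limit these results. In all, 3319 values of single genes or start classes were recomputed under alternatives other than the rod-marker scale. Of these, 3132 stayed on the same side of the threshold, 116 lost a call, 70 gained one and 1 reversed. The 3132 include values that were not called at first, which cannot lose a call, and uncalled values near 0 that changed sign. RLE factors, no filter on low counts, limma voom and summing per gene identifier left every count of called genes within 1.5 times its value. The cause of the changes below was not tested unless stated.

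The rod-marker scale gave 10 called genes for light in the combined experiment, 10 for BMT, 9 for MDB and 8 for DOX. Its construction moves every gene by the same factor in a library, and these log2 differences changed sign. For light against no light in the combined experiment they were Cacna1f 0.44, Cacna2d4 0.71, Cacnb2 0.42, Cabp4 0.23, Pclo 0.81, Unc13b 0.54, Slc17a7 0.29, Lrit1 0.58 and Ctbp2 (other starts) 0.82. For BMT before light against light they were Cacna1f -0.48, Cacna2d4 -0.74, Cacnb2 -0.33, Cabp4 -0.33, Pclo -0.76, Unc13b -0.41, Slc17a7 -0.34, Lrit1 -0.46 and Ctbp2 (other starts) -0.67. For MDB before light against light they were Cacna1f -0.28, Cacna2d4 -0.64, Cacnb2 -0.41, Cabp4 -0.071, Bsn -0.67, Unc13b -0.38, Slc17a7 -0.32 and Lrit1 -0.48. For light against no light in the mono experiment they were Cacna1f 0.36, Cacna2d4 0.84, Cacnb2 0.53, Cabp4 0.21, Ctbp2 1.15, Bsn 1.02, Pclo 1.41, Unc13b 0.76, Slc17a7 0.11, Lrit1 0.85 and Ctbp2 (internal start) 1.04. For BRM before light against light they were Cacna1f -0.33, Cacna2d4 -0.77, Cacnb2 -0.47, Cabp4 -0.089, Ctbp2 -0.85, Bsn -0.48, Unc13b -0.60, Slc17a7 -0.15, Lrit1 -0.68 and Ctbp2 (internal start) -0.78. For MTP before light against light they were Cacna1f -0.35, Cacna2d4 -0.66, Cacnb2 -0.49, Cabp4 -0.26, Ctbp2 -0.96, Bsn -0.77, Pclo -0.94, Unc13b -0.59, Slc17a7 -0.20, Lrit1 -0.65 and Ctbp2 (internal start) -0.91. For TAM before light against light they were Cacna1f -0.25, Cacna2d4 -0.62, Cacnb2 -0.34, Cabp4 -0.32, Ctbp2 -0.91, Bsn -0.93, Pclo -0.93, Unc13b -0.52, Slc17a7 -0.16, Lrit1 -0.66 and Ctbp2 (internal start) -0.83. For DOX before light against light they were Cacna1f -0.40, Cacna2d4 -0.70, Cacnb2 -0.50, Cabp4 -0.15, Ctbp2 -0.75, Bsn -0.57, Unc13b -0.72, Slc17a7 -0.060, Lrit1 -0.72 and Ctbp2 (internal start) -0.59.

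DESeq2 called 5 genes for MDB, 8 for DOX, 1 for BRM against no light and 3 for the difference between experiments (Cacna1f, Ctbp2 and Slc17a7). The lens-fibre score as a covariate gave 7 for MDB and 4 for MTP, TAM with only the groups compared gave 2, and protein-coding transcripts only gave 8 for DOX. TMM-normalized FPKM were tested with limma for a single transcript per gene, at a pseudocount of 1 or 0.1. They gave 2 called genes for light in the combined experiment, 1 for MDB and 3 for BRM. At 0.1 Cacna1f with BRM was -0.085. For single transcripts with BRM, no filter on low counts gave 1 and RLE factors 4 called, against 2. The authors' TMM-normalized FPKM list fewer transcripts. Summed over the listed transcripts of a gene, they gave means without light of 26.9 for Cacna1f, 73.1 for Cacna2d4, 84.8 for Cacnb2, 53.9 for Ctbp2, 9.96 for Pclo and 58.2 for Unc13b in the combined experiment. In the mono experiment they were 31.7 for Cacna1f, 76.5 for Cacna2d4, 99.5 for Cacnb2, 157 for Cabp4, 58.1 for Ctbp2, 10.8 for Pclo, 61.1 for Unc13b, 715 for Slc17a7 and 104 for Lrit1.

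Leaving out 1 library gave 3 to 7 called genes for light in the combined experiment, 7 to 8 in the mono experiment, 3 to 6 for BMT, 1 to 2 for MDB, 2 to 5 for BRM, 3 to 6 for MTP, 4 to 7 for TAM, 2 to 7 for DOX and 0 in every other comparison. Replicate numbers did not pair the libraries: the correlations of same-numbered libraries ran from -0.50 to 0.75, and 1 of 16 comparisons had all 3 pairs over 0.1. A replicate block gave 4 called genes for MDB, 5 for light in the combined experiment, 6 for BMT, where Ctbp2 was lost and Cacna1f and Lrit1 were gained, 8 for light in the mono experiment, 6 for BRM, 6 for MTP, 7 for TAM, 5 for DOX and 0 elsewhere. Tests of transcript use within a gene were not run. Libraries with a lens-fibre score under 6 could not give a value for MDB, BRM and mono light, which had none.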
